A study of Homo sapiens with 5 samples.

Results

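Levels of 9 genes of pericellular proteolysis were followed in HCT116 cells, a human colorectal cancer line, after siRNA against SP1, SP3 or both. The genes were the plasminogen activator PLAU, its receptor PLAUR, the serpin SERPINE2, the metalloproteinase inhibitors TIMP1, TIMP2 and TIMP3, and the metalloproteinases MMP11, MMP14 and MMP15. They were chosen by gene symbol. All 9 were found among the 20030 genes of each table, and all 9 were among the 11728 genes that reached 1 FPKM in any library, the set that was tested. FPKM is a fragment count scaled by transcript length and by library size. The lengths used were not given, so orders and ratios between genes hold for FPKM only. There were 5 libraries of total RNA. The genotype label was control for 2 libraries (titled NC), SP1 knockdown for 1, SP3 knockdown for 1, and SP1 and SP3 knockdown for 1. The labels do not say whether the controls received a control siRNA or were untreated, so an effect of siRNA treatment as such cannot be told apart from that of the knockdowns. A small interfering RNA (siRNA) guides the cell's own machinery to destroy a matching transcript. The labels used here state neither its amount and sequence nor how long the cells were exposed, and nothing says whether the libraries came from separate cultures.

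Urokinase, the product of PLAU, is a serine protease that turns plasminogen into plasmin. It does so at the cell surface while bound to its receptor, a lipid-anchored protein encoded by PLAUR, and it is held in check by serpins, protease inhibitors that trap their target. Plasmin digests fibrin and matrix proteins and helps to activate secreted metalloproteinases, zinc proteases that cut collagens, laminins and cell surface proteins and are inhibited by the TIMP proteins. In colorectal tumours this system is known for its part in invasion. The SP1 and SP3 proteins bind DNA through zinc fingers and recognise GC-rich promoter elements, among them the GC box.

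Because SP1 and SP3 bind GC boxes, the 250 bases upstream of the start sites were taken from RefSeq (GRCh38.p14). Windows were found for 8 of the 9 genes, not for TIMP2, and 10 windows in all, since PLAU and SERPINE2 have a pair of starts each. The windows printed are those of the genes with the largest differences described below and of PLAUR, written 5′ to 3′ on the gene's strand. Capitals mark GGGCGG on either strand (the GC box) or, in PLAUR, the match to TGANTCA on either strand (the AP-1 element).
PLAU, chr10:73910882-73911131, plus strand: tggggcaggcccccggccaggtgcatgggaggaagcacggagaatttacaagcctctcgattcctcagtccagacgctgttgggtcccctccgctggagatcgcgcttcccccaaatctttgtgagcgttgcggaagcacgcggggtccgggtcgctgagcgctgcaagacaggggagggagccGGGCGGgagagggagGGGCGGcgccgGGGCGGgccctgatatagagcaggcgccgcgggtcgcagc
PLAUR, chr19:43670170-43670419, minus strand: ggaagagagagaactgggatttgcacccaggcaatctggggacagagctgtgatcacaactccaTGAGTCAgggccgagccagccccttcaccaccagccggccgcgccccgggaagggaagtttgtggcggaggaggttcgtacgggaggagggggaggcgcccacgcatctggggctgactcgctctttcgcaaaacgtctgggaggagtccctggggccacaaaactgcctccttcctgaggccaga
TIMP1, chrX:47582186-47582435, plus strand: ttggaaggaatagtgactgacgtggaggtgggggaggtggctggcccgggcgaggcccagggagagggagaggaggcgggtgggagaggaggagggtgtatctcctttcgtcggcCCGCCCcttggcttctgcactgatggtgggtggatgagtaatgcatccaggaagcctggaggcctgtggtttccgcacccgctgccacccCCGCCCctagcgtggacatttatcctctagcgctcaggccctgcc
TIMP3, chr22:32801455-32801704, plus strand: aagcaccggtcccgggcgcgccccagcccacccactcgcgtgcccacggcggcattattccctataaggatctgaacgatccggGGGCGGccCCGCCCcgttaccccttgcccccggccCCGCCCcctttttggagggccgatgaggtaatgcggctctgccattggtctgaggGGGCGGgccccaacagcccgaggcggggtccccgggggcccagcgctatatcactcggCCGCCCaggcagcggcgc
MMP11, chr22:23772599-23772848, plus strand: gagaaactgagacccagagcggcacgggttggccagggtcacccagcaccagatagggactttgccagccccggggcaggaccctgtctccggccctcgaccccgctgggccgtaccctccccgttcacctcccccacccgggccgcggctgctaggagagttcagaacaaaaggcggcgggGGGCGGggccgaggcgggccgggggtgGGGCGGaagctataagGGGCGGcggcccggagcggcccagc
The PLAU window held 3 GC boxes, at 66, 51 and 40 bases upstream of the start, and the other PLAU start had 0. TIMP3 and MMP15 had 5 each, MMP11 had 3, TIMP1 had 2, MMP14 had 1, and the SERPINE2 windows had 1 and 2. PLAUR had 0 GC boxes and 1 AP-1 match, 186 bases upstream. Among all 35116 such windows, 42.6% held a GC box, 13.9% held 3 or more, 4.15% held 5 or more, and 6.57% held the AP-1 motif. A GT box (GGGTGG on either strand, in 31.3% of windows) occurred 3 times in TIMP1, 2 times in MMP11 and 1 time each in TIMP3, MMP15 and 1 of the SERPINE2 windows. These motifs were counted by exact match only, and their part in the differences described below was not tested.

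The libraries had 14678068 to 15970519 counted reads, read from the steps of the FPKM values. The siRNA targets checked the labels. SP1 stood at 36.6 and 37.2 FPKM in the controls, 15.8 with the SP1 siRNA, 27.5 with the SP3 siRNA and 16.1 with both. SP3 stood at 13.3 and 13.0 FPKM in the controls, 14.3 with the SP1 siRNA, 5.42 with the SP3 siRNA and 6.67 with both. SP1 was also lower with the SP3 siRNA than in the controls (limma log2 difference -0.41 ± 0.07, adjusted p = 0.000165). All 8 epithelial markers fixed for HCT116, among them EPCAM and CDH1, were above 1 FPKM in every library. Their levels moved in both directions. KRT18 stood at 750 and 740 FPKM in the controls, 408 with the SP1 siRNA, 284 with the SP3 siRNA and 153 with both. In the same order CLDN4 stood at 630, 625, 221, 224 and 181, and ELF3 at 267, 267, 246, 90.9 and 153. CLDN7 stood at 105, 102, 148, 142 and 160, and KRT8 at 1749, 1799, 1737, 2361 and 2253. Of 8 leukocyte markers, 6 reached 1 FPKM in each control and 1, CD68, in each siRNA library. Without CD68 the leukocyte markers summed to 21.1 and 22.5 FPKM in the controls, 1.46 with the SP1 siRNA, 0.697 with the SP3 siRNA and 1.12 with both, and TYROBP and CD3E were at 0 in every siRNA library. Of the 6 leukocyte markers tested, 5 fell in each comparison with the controls. Of all tested genes, 28.8% fell with the SP1 siRNA, 32.1% with the SP3 siRNA and 31.1% with both. CD68, the other tested marker, stood at 61.9 and 58.7 FPKM in the controls and 56.2 with the SP1 siRNA. It was above both controls with the SP3 siRNA (94.1) and with both (75.3). The 8 fibroblast markers summed to 13.8 to 20.7 FPKM over the 5 libraries, with LUM at 0 in all of them. COL1A1 and ACTA2 were the 2 that reached 1 FPKM. Each leukocyte marker except CD68 was higher in both controls than in any siRNA library. LYZ stood at 11.1 and 12.2 FPKM in the controls, 0.258 with the SP1 siRNA, 0.124 with the SP3 siRNA and 0.0449 with both. In bulk RNA, fewer cells of a type and less RNA per cell cannot be told apart. Where the leukocyte transcripts in the control libraries came from was not tested. Their part in the differences between siRNA libraries and controls was not tested for any gene.

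In each comparison with the controls most of these genes differed, as most genes did. The test was limma on log2(FPKM + 1), with 1 mean per group, adjusted over all 11728 genes by the Benjamini-Hochberg method. An adjusted p under 0.05 counted as a call. Only the 2 controls give a spread, so each siRNA library was assumed to vary like them, without a second siRNA library to check it. With the SP1 siRNA 6 of the 9 genes were called, 2 higher and 4 lower, where 65.4% of the tested genes were called (36.5% up and 28.8% down). With the SP3 siRNA 6 were called, 1 higher and 5 lower, against 61.6% of all genes (29.6% higher and 32.1% lower). With both, 7 were called, 1 higher and 6 lower, against 63% of all genes (31.9% higher and 31.1% lower). Between siRNA libraries, both siRNAs against the SP1 siRNA gave 6 calls, 2 higher and 4 lower, against 47.5% of all genes (21% higher and 26.4% lower). Both siRNAs against the SP3 siRNA gave 7 calls, 3 higher and 4 lower, against 33% of all genes (17.9% higher and 15.1% lower). The SP3 against the SP1 siRNA gave 8 calls, 4 in each direction, against 62.7% of all genes (26.5% higher and 36.2% lower). In the comparisons with control the members' shares called in either direction were near the background, so these totals say nothing particular about the 9 genes. By direction, 4, 5 and 6 of the 9 were lower, against 28.8%, 32.1% and 31.1% of all genes. That lean was not tested for the list. The median difference over the 9 genes was -0.09 with the SP1 siRNA, -0.44 with the SP3 siRNA and -0.43 with both, and over all tested genes 0.06, -0.02 and 0.01. Without a test, 8 of the 9 genes lay outside the span of the 2 controls with the SP1 siRNA, 2 above and 6 below, where 93% of all genes did (51.2% above and 41.8% below). With the SP3 siRNA all 9 did, 3 above and 6 below, against 92.3% (44.7% and 47.6%), and with both all 9, 1 above and 8 below, against 92.6% (47.1% and 45.5%). The 3 comparisons share their control libraries. In an additive model, where a departure of the double knockdown from the sum of the single ones counts as spread, fewer calls held: 0 with the SP1 siRNA (5 at an unadjusted p under 0.05 in limma), 4 with the SP3 siRNA and 3 with both. Without the filter on low values (1.03 prior degrees of freedom in place of 13.98) no call of the 9 genes held for both siRNAs against either single one or for the interaction (5, 3 and 5 at an unadjusted p under 0.05 in limma).

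**Figure D1:**
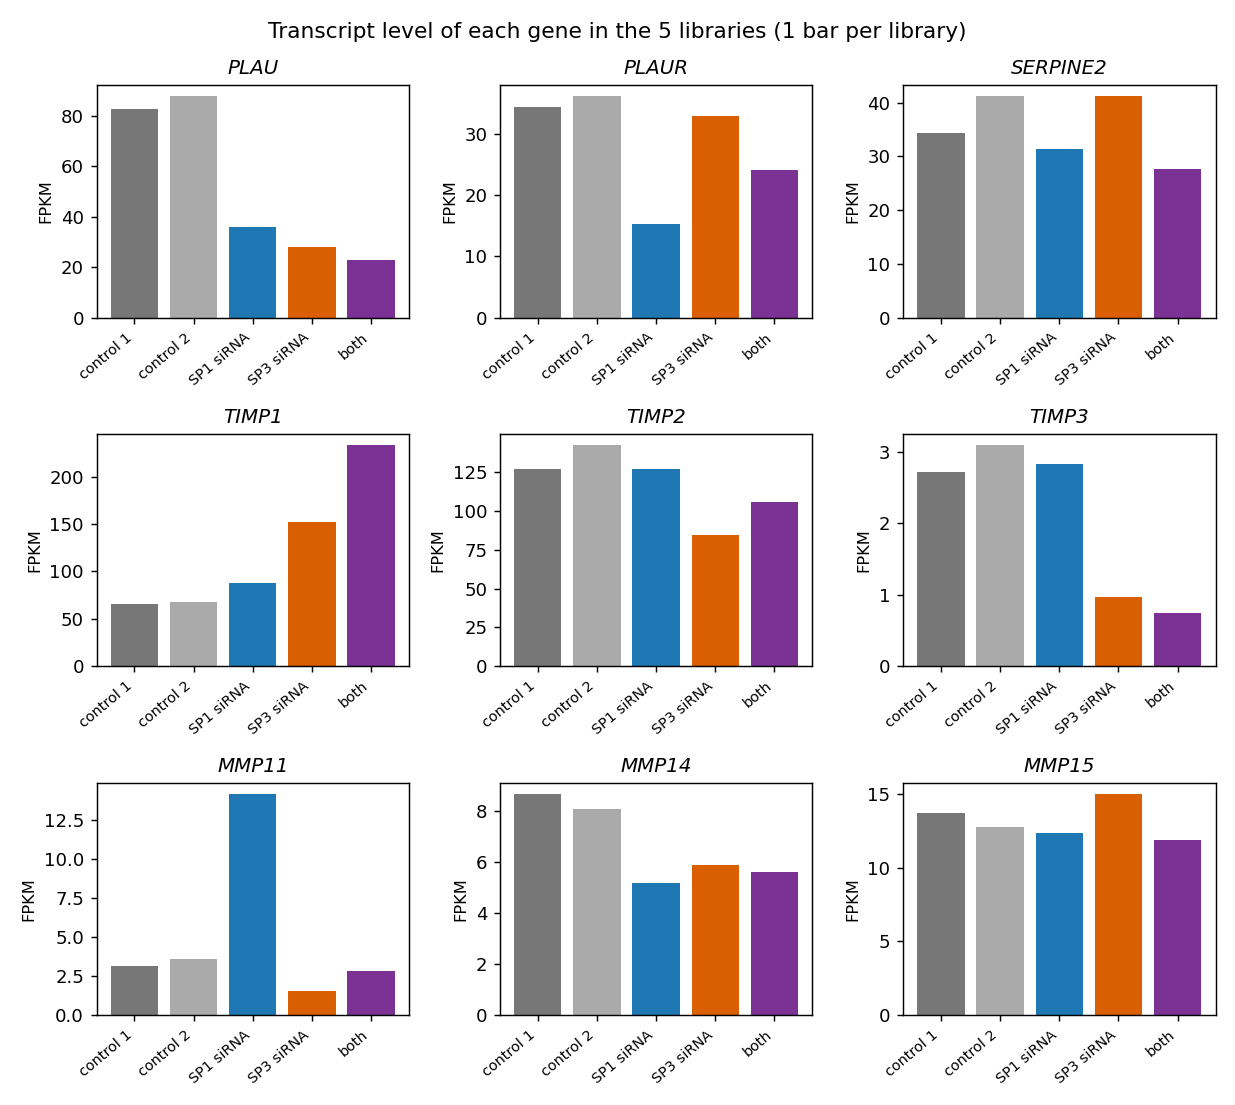
FPKM of each of the 9 genes (1 panel per gene, vertical axis from 0) in the 2 control libraries, the SP1 siRNA library, the SP3 siRNA library and the library with both siRNAs, 1 bar per library. PLAU was lower in all 3 siRNA libraries than in either control, TIMP1 was higher in all 3, and MMP11 reached 14.2 FPKM in the SP1 siRNA library against 3.15 and 3.60 in the controls.

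**Figure D2:**
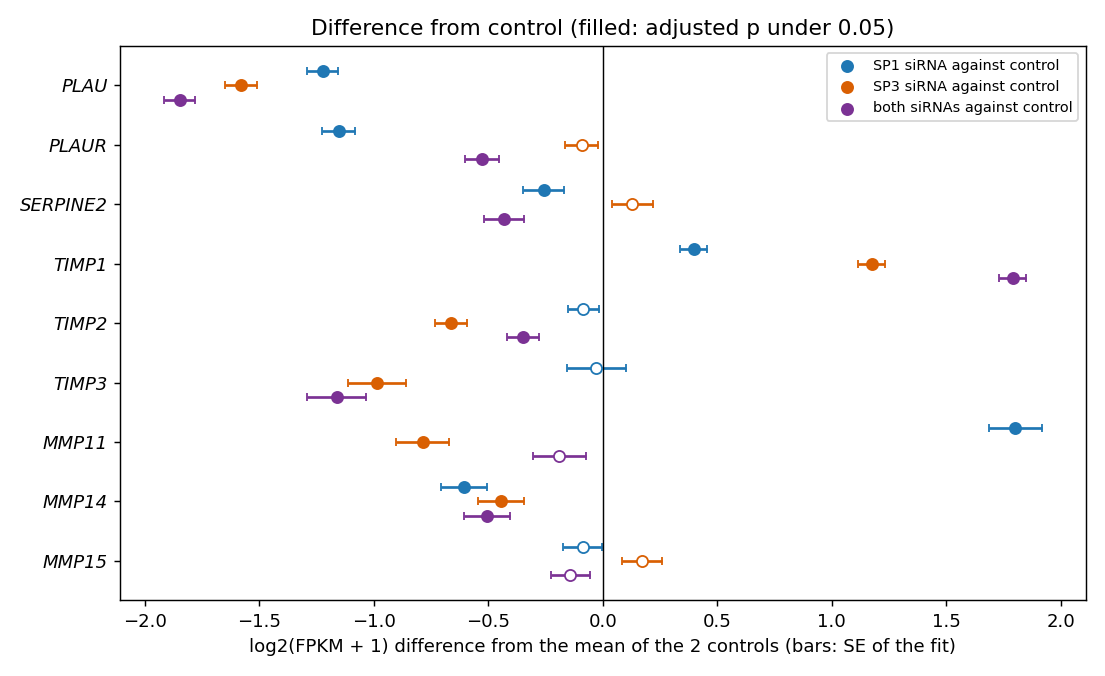
Difference of each siRNA library from the mean of the 2 controls on the log2(FPKM + 1) scale (horizontal axis), by gene (vertical axis). Bars are standard errors of the limma fit and filled points have an adjusted p under 0.05. The points run from -1.85 (PLAU, both siRNAs) to 1.80 (MMP11, SP1 siRNA), and the 3 points of MMP15 are open.

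PLAU, which encodes urokinase, fell with each siRNA and was lowest with both. It stood at 82.9 and 87.9 FPKM in the controls, 36.0 with the SP1 siRNA, 27.9 with the SP3 siRNA and 23.0 with both. The siRNA libraries and the controls did not overlap. With the SP1 siRNA this was 42.1% of the control level (39.9 to 44.5%, the exact 95% interval of a ratio of 2 read counts), with the SP3 siRNA 32.7% (30.7 to 34.7%) and with both 26.9% (25.1 to 28.8%). The recovered reads behind these values were 3649 and 3921 in the controls and 1551, 1250 and 947 in the siRNA libraries. Intervals from reads cover counting error only. The log2 differences were -1.22 ± 0.07 (SE, limma adjusted p = 9.24e-10), -1.58 ± 0.07 (7.27e-11) and -1.85 ± 0.07 (1.3e-11). Of 11728 tested genes, 286 had a lower difference than PLAU with the SP1 siRNA, 79 with the SP3 siRNA and 45 with both. The fall with the SP3 siRNA exceeded that with the SP1 siRNA by 0.36 ± 0.08 in the direct comparison of the 2 libraries (adjusted p = 0.0011). Adding the second siRNA lowered PLAU further, by -0.62 ± 0.08 against the SP1 siRNA alone (adjusted p = 1.48e-05) and by -0.27 ± 0.08 against the SP3 siRNA alone (0.0167). In the additive model the falls with the SP3 siRNA and with both passed the threshold, and the difference with the SP1 siRNA was -0.81 (adjusted p = 0.0776). C10orf55, which overlaps PLAU in RefSeq, had 0.163 to 0.375 FPKM over the 5 libraries.

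PLAUR, the urokinase receptor, fell with the SP1 siRNA and less so with both, while the SP3 siRNA library lay just below the controls. It stood at 34.3 and 36.2 FPKM in the controls, 15.3 with the SP1 siRNA, 33.0 with the SP3 siRNA and 24.1 with both. The SP1 siRNA library was the lowest, and the double knockdown lay between the single ones. The level was 43.3% of control with the SP1 siRNA (40.1 to 46.9%), 93.6% with the SP3 siRNA (88.3 to 99.1%) and 68.4% with both (64.0 to 73.1%). The log2 differences were -1.15 ± 0.07 (limma adjusted p = 3.59e-09), -0.09 ± 0.07 (0.288) and -0.53 ± 0.07 (1.58e-05). PLAUR was higher with both siRNAs than with the SP1 siRNA alone, by 0.63 ± 0.08 (adjusted p = 2.87e-05), and lower with both than with the SP3 siRNA alone, by 0.44 ± 0.08 (adjusted p = 0.00122). In the additive model the PLAUR differences were -0.85 with the SP1 siRNA (adjusted p = 0.0545) and -0.63 with both (0.116). PLAUR is also a gene of myeloid cells, and 5 of 6 tested leukocyte markers fell in each siRNA library. The other, CD68, was above both controls with the SP3 siRNA (94.1 FPKM) and with both (75.3 FPKM). Without CD68 the markers summed to 21.1 and 22.5 FPKM in the controls. The sums were 1.46 with the SP1 siRNA, 0.697 with the SP3 siRNA and 1.12 with both. The part of leukocyte RNA in the lower PLAU and PLAUR was not tested, nor was its part in the differences of the other genes from the controls.

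The FPKM of the protease thus exceeded that of its receptor in some libraries and not in others. The ratio of PLAU to PLAUR, both per length in FPKM, was 2.41 and 2.43 in the controls and 2.35 with the SP1 siRNA, where PLAU was at 42.1% and PLAUR at 43.3% of control. It was 0.845 with the SP3 siRNA and 0.952 with both.

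SERPINE2 encodes protease nexin-1, a serpin that inhibits thrombin, urokinase and plasmin. It stood at 34.3 and 41.2 FPKM in the controls, 31.3 with the SP1 siRNA, 41.2 with the SP3 siRNA and 27.6 with both. The 2 controls themselves differed, control 2 being at 120% of control 1 (111.8 to 128.9%), the widest relative gap between controls among the 9 genes. The SP3 siRNA library lay level with control 2, and the other siRNA libraries below both controls. The log2 differences were -0.26 ± 0.09 with the SP1 siRNA (limma adjusted p = 0.0192), 0.13 ± 0.09 with the SP3 siRNA (0.224) and -0.43 ± 0.09 with both (0.000625). SERPINE2 was lower with both siRNAs than with the SP3 siRNA alone, by 0.56 ± 0.10 (adjusted p = 0.000811). The SP1 siRNA value ranged from -0.39 to -0.13 with control 1 or control 2 left out. Neither fall passed the threshold in the additive model, where the values were -0.39 and -0.39 (adjusted p = 0.12 and 0.172), nor without the filter on low values (0.328 and 0.191).

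TIMP1, a secreted inhibitor of most metalloproteinases, rose with each siRNA and most with both. It stood at 66.1 and 67.5 FPKM in the controls, 88.2 with the SP1 siRNA, 152 with the SP3 siRNA and 233 with both. The controls lay close together, and every siRNA library lay above them. The level was 132% of control with the SP1 siRNA (125.9 to 138.5%), 228% with the SP3 siRNA (218.6 to 237.1%) and 349% with both (336.5 to 362.9%). On the log2 scale TIMP1 differed by 0.40 ± 0.06 (limma adjusted p = 2.89e-05), 1.18 ± 0.06 (3.59e-10) and 1.79 ± 0.06 (3.76e-12). With both siRNAs, 36 of the 11728 tested genes had a higher difference than TIMP1. TIMP1 was higher with both than with the SP1 siRNA alone by 1.39 ± 0.07 (adjusted p = 1.21e-09) and than with the SP3 siRNA alone by 0.61 ± 0.07 (1.12e-05). The rises with the SP3 siRNA and with both passed in the additive model, and the value with the SP1 siRNA was 0.49 (adjusted p = 0.0532). TIMP1 overlaps SYN1, which encodes a synaptic vesicle protein, in RefSeq. Nothing in the labels says whether counting used the strand, so reads of the 2 genes may not be separable where they overlap. SYN1 stood at 0.0993 and 0.157 FPKM in the controls, 0.304 with the SP1 siRNA, 1.74 with the SP3 siRNA and 1.95 with both. Its differences were 0.21 ± 0.14 (limma adjusted p = 0.199), 1.28 ± 0.14 (1.42e-06) and 1.39 ± 0.14 (5.45e-07), and its part in the TIMP1 values was not tested.

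TIMP2 inhibits metalloproteinases and, bound to MMP14, also takes part in the activation of pro-MMP2. It was the most abundant of the 9 transcripts in the controls, at 127 and 142 FPKM, and stood at 127 with the SP1 siRNA, 84.6 with the SP3 siRNA and 105 with both. The SP1 siRNA library lay level with control 1, and the SP3 siRNA library was lowest. TIMP2 was at 62.8% of control with the SP3 siRNA (60.8 to 64.8%) and at 78.2% with both (75.9 to 80.7%). Its log2 differences were -0.08 ± 0.07 with the SP1 siRNA (limma adjusted p = 0.292), -0.66 ± 0.07 with the SP3 siRNA (8.26e-07) and -0.35 ± 0.07 with both (0.000425). CEP295NL, which overlaps TIMP2 in RefSeq, stood at 0.723 to 1.59 FPKM over the 5 libraries. The additive model gave -0.49 with the SP3 siRNA (adjusted p = 0.0647) and -0.41 with both (0.147), and without the filter on low values neither passed (adjusted p = 0.0747 and 0.146).

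TIMP3, the inhibitor that binds to the extracellular matrix and also acts on ADAM17, was the least abundant TIMP and fell in the libraries that received the SP3 siRNA. It stood at 2.72 and 3.10 FPKM in the controls, 2.83 with the SP1 siRNA, 0.970 with the SP3 siRNA and 0.745 with both. The SP1 siRNA library lay between the controls. These values rest on 234 and 270 reads in the controls and 238, 85 and 60 in the siRNA libraries. TIMP3 was at 33.4% of control with the SP3 siRNA (26.2 to 42.0%) and at 25.6% with both (19.3 to 33.5%), against 97.1% with the SP1 siRNA (82.9 to 113.5%). The log2 differences were -0.99 ± 0.13 with the SP3 siRNA (limma adjusted p = 8.83e-06), -1.16 ± 0.13 with both (1.51e-06) and -0.03 ± 0.13 with the SP1 siRNA (0.853). At these low levels the added 1 FPKM makes the log2 differences smaller than the change in reads. TIMP3 overlaps SYN3, which was at 0 to 0.0116 FPKM in the 5 libraries. Both falls held in the additive model, at -1.05 with the SP3 siRNA (adjusted p = 0.018) and -1.14 with both (0.0273). Without the filter on low values the SP3 siRNA call was lost (adjusted p = 0.056) and that with both held (0.0478).

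The mix of inhibitor transcripts therefore changed. TIMP1 made up 33.8% and 31.7% of the summed FPKM of the 3 TIMP genes in the controls, 40.5% with the SP1 siRNA, 64.0% with the SP3 siRNA and 68.7% with both. The sum was 196 and 213 FPKM in the controls, 218 with the SP1 siRNA, 238 with the SP3 siRNA and 340 with both. By FPKM, TIMP2 led in the controls and in the SP1 siRNA library, and TIMP1 in the libraries that received the SP3 siRNA. TIMP1 rose and TIMP3 fell in those same libraries.

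**Figure D3:**
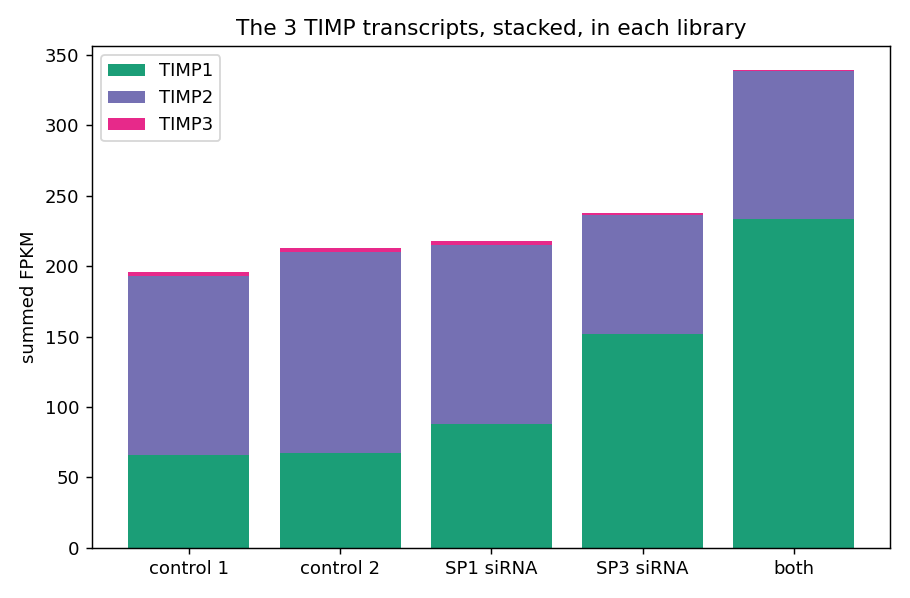
Summed FPKM (vertical axis) of TIMP1, TIMP2 and TIMP3 in each of the 5 libraries, stacked in that order from the bottom. TIMP1 made up 68.7% of the sum in the library with both siRNAs against 33.8% and 31.7% in the controls, and TIMP3 is a thin band throughout.

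MMP11, or stromelysin-3, is a secreted metalloproteinase that furin activates inside the cell and that is best known from the stroma of tumours. It went in opposite directions with the single siRNAs. It stood at 3.15 and 3.60 FPKM in the controls, 14.2 with the SP1 siRNA, 1.53 with the SP3 siRNA and 2.83 with both. The SP1 siRNA library was far above the controls, the SP3 siRNA library below them, and the double knockdown just below control 1. The reads were 113 and 131 in the controls and 500, 56 and 95 in the siRNA libraries. MMP11 was at 421% of control with the SP1 siRNA (360.9 to 493.2%), 45.4% with the SP3 siRNA (33.3 to 60.9%) and 83.8% with both (65.4 to 106.6%). On the log2 scale MMP11 differed by 1.80 ± 0.12 (limma adjusted p = 3.91e-09), -0.79 ± 0.12 (2.88e-05) and -0.19 ± 0.12 (0.164). With the SP1 siRNA, 34 of 11728 tested genes had a higher difference. The 2 single siRNA libraries differed by -2.59 ± 0.13 (SP3 siRNA minus SP1 siRNA, adjusted p = 5.42e-10), and the double knockdown was lower than the SP1 siRNA library by 1.99 ± 0.13 (adjusted p = 2.75e-08). In the additive model MMP11 lay at 1.28 with the SP1 siRNA (adjusted p = 0.0545) and at -1.30 with the SP3 siRNA (0.0413). Without the filter on low values the rise with the SP1 siRNA passed (adjusted p = 0.0374) and the SP3 siRNA difference did not (0.0679). Its neighbours on the chromosome are SMARCB1, a chromatin remodelling subunit at 32.7, 29.5, 51.6, 40.7 and 51.1 FPKM in the order control 1, control 2, SP1 siRNA, SP3 siRNA and both, and CHCHD10, a mitochondrial protein gene at 76.7, 80.9, 104, 67.3 and 50.6 FPKM.

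MMP14, or MT1-MMP, is a membrane-anchored collagenase and the activator of pro-MMP2. It fell by a like amount in all 3 siRNA libraries. It stood at 8.67 and 8.08 FPKM in the controls, 5.16 with the SP1 siRNA, 5.89 with the SP3 siRNA and 5.61 with both. The siRNA libraries lay below both controls and close to each other. The level was 61.6% of control with the SP1 siRNA (53.8 to 70.4%), 70.3% with the SP3 siRNA (61.9 to 79.7%) and 67.0% with both (58.6 to 76.4%). In limma MMP14 differed by -0.60 ± 0.10 (adjusted p = 8.67e-05), -0.44 ± 0.10 (0.00131) and -0.50 ± 0.10 (0.000463). Between siRNA libraries MMP14 differed by 0.16 ± 0.12 (SP3 minus SP1 siRNA), 0.10 ± 0.12 (both minus SP1 siRNA) and -0.06 ± 0.12 (both minus SP3 siRNA), none past the threshold (adjusted p = 0.243, 0.498 and 0.728). In the additive model no MMP14 difference from control passed (adjusted p = 0.159, 0.368 and 0.0987), nor without the filter on low values (0.052, 0.0787 and 0.0664).

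MMP15, or MT2-MMP, is a second membrane-anchored metalloproteinase and the most abundant of the 3 in the controls. It stood at 13.7 and 12.7 FPKM in the controls, 12.4 with the SP1 siRNA, 15.03 with the SP3 siRNA and 11.9 with both. None of its differences from control passed the threshold, at -0.09 ± 0.09, 0.17 ± 0.09 and -0.14 ± 0.09 (limma adjusted p = 0.382, 0.0963 and 0.166). It was higher with the SP3 siRNA than with the SP1 siRNA by 0.26 ± 0.10 (adjusted p = 0.0331) and lower with both than with the SP3 siRNA by 0.31 ± 0.10 (0.0249). In the controls MMP15 led the 3 metalloproteinases with 53.7% and 52.2% of their summed FPKM. In the SP1 siRNA library MMP11 led with 44.8%, and in the SP3 siRNA and double knockdown libraries MMP15 led again with 67.0% and 58.5%.

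By level, the order in control 1 was TIMP2, PLAU, TIMP1, PLAUR, SERPINE2, MMP15, MMP14, MMP11 and TIMP3. PLAUR and SERPINE2 did not differ beyond the spread of the controls, and in control 2 SERPINE2 stood above PLAUR. MMP11 and TIMP3 lay next to each other without overlap. With both siRNAs TIMP1 came first, TIMP2 second, and PLAU fell to the fifth place behind SERPINE2 and PLAUR.

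The libraries also allow a test of whether the 2 siRNAs combined as the sum of their single differences on the log2 scale. The interaction is the difference with both siRNAs minus that sum. It passed the threshold for 5 of the 9 genes, 4 above and 1 below the sum, where 39.5% of the tested genes passed (18.5% above and 21% below). PLAU lay at -1.85 with both where the sum was -2.80 (interaction 0.95 ± 0.10, limma adjusted p = 5.65e-06). PLAUR lay at -0.53 where the sum was -1.25 (0.72 ± 0.11, adjusted p = 0.000156). MMP14 lay at -0.50 where the sum was -1.05 (0.55 ± 0.15, adjusted p = 0.0111), and TIMP2 at -0.35 where the sum was -0.75 (0.40 ± 0.11, adjusted p = 0.00753). MMP11 lay at -0.19 where the sum was 1.01 (-1.21 ± 0.18, adjusted p = 8.9e-05). For TIMP1 the sum was 1.57 and the value 1.79 (0.22 ± 0.09, adjusted p = 0.0668), and for TIMP3 -1.02 and -1.16 (-0.15 ± 0.20, 0.588). SERPINE2 and MMP15 did not pass either (adjusted p = 0.0926 and 0.19). The falls of PLAU and MMP14 with both siRNAs were thus smaller than the summed single falls. PLAUR and TIMP2 each had 1 called single fall, and fell less with both than with that siRNA alone. The values were -0.53 against -1.15 (SP1 siRNA) for PLAUR and -0.35 against -0.66 (SP3 siRNA) for TIMP2. The knockdown itself was compared across libraries. Both siRNAs against the SP3 siRNA gave a limma difference of 0.25 ± 0.10 for SP3. Both against the SP1 siRNA gave 0.02 ± 0.08 for SP1. Neither passed the threshold, and the intervals below cover counting error only. SP3 was at 41.3% of control with the SP3 siRNA (37.7 to 45.2%) and at 50.7% with both (46.5 to 55.3%). SP1 was at 42.9% of control with the SP1 siRNA, 74.5% with the SP3 siRNA and 43.6% with both. The interaction was 0.43 ± 0.11 for SP1 itself and 0.14 ± 0.14 for SP3. The part of the SP1 and SP3 levels in the interactions of the 9 genes was not tested.

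**Figure D4:**
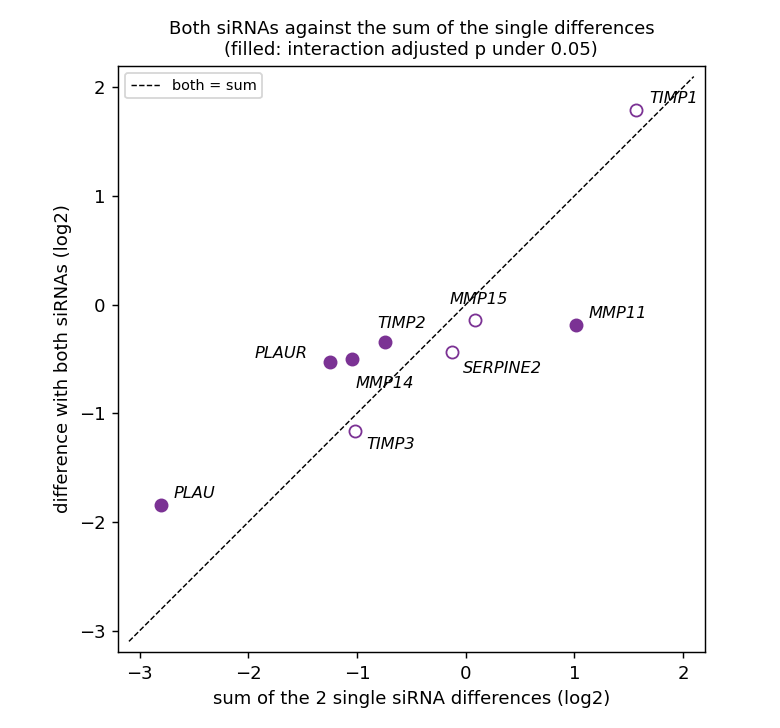
Difference from control with both siRNAs (vertical axis, log2) against the sum of the 2 single siRNA differences (horizontal axis, log2), 1 point per gene, filled where the interaction had an adjusted p under 0.05. The dashed line marks equality. PLAU, PLAUR, MMP14 and TIMP2 lie above it and MMP11 below it, at -0.19 against a sum of 1.01.

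Other genes of the plasminogen system, 31 on the list and 23 tested, moved in both directions. With the SP1 siRNA 5 rose and 13 fell (median -0.26), with the SP3 siRNA 6 rose and 11 fell (median -0.19) and with both 6 rose and 12 fell (median -0.17). Of all tested genes, 36.5% rose and 28.8% fell with the SP1 siRNA, 29.6% and 32.1% with the SP3 siRNA, and 31.9% and 31.1% with both. ANXA2 and S100A10 form the annexin A2 tetramer, a plasminogen binding site on cells. S100A10 stood at 279 and 284 FPKM in the controls, 182 with the SP1 siRNA, 255 with the SP3 siRNA and 231 with both, and it fell with the SP1 siRNA (-0.62 ± 0.05, limma adjusted p = 1.18e-07). ANXA2 stood at 535 and 548 FPKM in the controls, 592, 577 and 663 in the same order, and it rose with both siRNAs (0.29 ± 0.05, adjusted p = 0.000206). MRC2, an endocytic receptor that binds the urokinase receptor and collagen, stood at 10.5 and 10.7 FPKM in the controls, 7.51, 2.87 and 3.41, and its fall with the SP3 siRNA was -1.58 ± 0.10 (adjusted p = 4.03e-09). ITGAV, the alpha-v integrin, fell by 1.02 ± 0.09 both with the SP3 siRNA and with both siRNAs (adjusted p = 1.11e-07 and 1.02e-07). ST14, the membrane serine protease matriptase, which can activate pro-urokinase, fell by 0.84 ± 0.06 with the SP1 siRNA (adjusted p = 1.98e-08). SERPINB6, an intracellular serpin, rose by 1.13 ± 0.10 with the SP1 siRNA (adjusted p = 1.05e-07).

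Of 20 other metalloproteinase genes on the list, 5 reached 1 FPKM in any library and were tested. With the SP1 siRNA 2 rose and 1 fell, with the SP3 siRNA 3 rose and 2 fell, and with both 2 rose and 2 fell, where 65.4%, 61.6% and 63% of all tested genes were called. The median difference of these 5 genes was 0.03 with the SP1 siRNA, 0.55 with the SP3 siRNA and 0.08 with both. MMP17, another membrane-type metalloproteinase, stood at 12.1 and 12.2 FPKM in the controls. It was at 8.44 with the SP1 siRNA, 5.92 with the SP3 siRNA and 7.49 with both. It fell in all 3 (-0.48 ± 0.09, -0.93 ± 0.09 and -0.63 ± 0.09, limma adjusted p = 0.000309, 4.8e-07 and 2.49e-05). Of 19 ADAM and ADAMTS genes 10 were tested, and 7 rose and 1 fell with the SP1 siRNA, 4 rose and 2 fell with the SP3 siRNA, and 4 rose and 2 fell with both. Over all tested genes 36.5% rose and 28.8% fell with the SP1 siRNA, 29.6% and 32.1% with the SP3 siRNA, and 31.9% and 31.1% with both. The medians of the ADAM and ADAMTS genes were 0.33, 0.01 and 0.16. ADAM15, a membrane disintegrin protease, rose in all 3 comparisons (0.32 ± 0.07, 0.50 ± 0.07 and 0.47 ± 0.07). ADAMTS7, a protease of cartilage and vessel matrix, stood at 6.97 and 6.55 FPKM in the controls and 13.8 with the SP1 siRNA, against 5.27 with the SP3 siRNA and 4.74 with both.

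Among activators and inhibitors of metalloproteinases, 16 of 20 were tested. With the SP1 siRNA 5 rose and 4 fell, with the SP3 siRNA 6 rose and 6 fell, and with both 3 rose and 1 fell. The calls were thus 9, 12 and 4 of 16, where 65.4%, 61.6% and 63% of all tested genes were called. FURIN, the proprotein convertase that activates MMP11 and MMP14, was the 1 that fell with both. It stood at 27.7 and 27.7 FPKM in the controls, 8.80 with the SP1 siRNA, 23.0 with the SP3 siRNA and 15.9 with both. Its differences were -1.55 ± 0.08, -0.25 ± 0.08 and -0.77 ± 0.08 (limma adjusted p = 2.72e-10, 0.00955 and 5.1e-07). In the SP1 siRNA library the transcript of FURIN was thus lowest where that of MMP11 was highest. BSG, or basigin, a membrane protein known to induce metalloproteinases in neighbouring cells, stood at 273 and 292 FPKM in the controls and rose with the SP1 siRNA to 352 FPKM (0.32 ± 0.06, adjusted p = 0.000196). In the additive model, the calls of the 11 named list genes that held were ST14 with the SP1 siRNA (adjusted p = 0.0483), MRC2 with the SP3 siRNA and with both (0.0195 and 0.0277) and ITGAV with the SP3 siRNA and with both (0.0328 and 0.0323). All other calls of these genes were lost, among them MMP17 (0.609, 0.0916 and 0.0933 with the SP1 siRNA, the SP3 siRNA and both), ADAM15 (0.372, 0.112 and 0.0805), FURIN with the SP1 siRNA and with both (0.0555 and 0.0967) and ANXA2 with both (0.108).

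The genes whose 3 differences from control lay closest to those of each member were sought among 6192 named genes whose mean reached 5 FPKM, by Euclidean distance on the log2 scale over the 3 siRNA libraries. For PLAU these were NGFR (distance 0.275), AMOTL2 (0.286) and the claudin gene CLDN4 (0.302). For PLAUR they were PRAG1 (0.051), DRG1 (0.099) and TMBIM6 (0.104). For TIMP1 they were WFDC3 (0.222), FOS (0.287) and NUDT22 (0.313), and for MMP11 TOP1MT (0.225), RBM12B (0.417) and TOX2 (0.556). The nearest genes of the others were BRAT1 for TIMP2 (0.042), ARVCF for MMP14 (0.046), LSM12 for MMP15 (0.039) and GNAI1 for SERPINE2 (0.068). The distance rests on 3 libraries and shared controls, and TIMP3 was below the level set for it.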

How the data were processed

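RNA sequencing of 5 HCT116 libraries was used. The authors deposited FPKM per gene symbol, 1 table per library, per the file headers. The submitters' processing notes name HTSeq 0.9.1, Cufflinks 2.2.1, Trimmomatic 0.36 and HISAT2 2.0.5, without saying which made the values. The genome build, annotation and strand setting were "not given in the sources used here". Members and lists were chosen with earlier results of these data known. Library totals and reads were recovered from the steps of the FPKM values (single-transcript genes of GENCODE, tolerance 0.02 reads). All 17125 genes above 0 gave whole reads. The smallest fitting length was used, so reads are lower limits. Values were taken as log2(FPKM + 1) and tested with limma 3.58.1 in R 4.3.3 (empirical Bayes with a trend, 1 residual and 13.98 prior degrees of freedom, 7 comparisons), after a filter of 1 FPKM in at least 1 library. The p-values measure only the spread between the 2 controls, which may be technical. The test was run on simulated data with known answers. It recovered them, with more false calls than the threshold nominally allows. The simulation gave every library the spread of the control pair, so it could not check whether siRNA libraries vary like the controls. Changes were placed in the SP1 siRNA library only, in genes above the level of TIMP3, and the interaction was not covered. Named genes outside the 9 were, per list and comparison with the controls, up to 4 by smallest p (mean of at least 1 FPKM) or those of at least 50 FPKM in the controls. Of the genes this selects, 11 are named, chosen after their values were seen, and some are not reported here. C10orf55, SYN1, SYN3, CEP295NL, SMARCB1 and CHCHD10 were added as overlapping or neighbouring genes in RefSeq.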

Additional observations from a re-analysis of the deposited data

Results flagged for a closer look

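For 5 genes the effect of one siRNA differed with and without the other, by limma's interaction term on the log2 scale, with 1 library in each siRNA group. PLAU had an interaction of 0.95 ± 0.10 (adjusted p = 5.65e-06). PLAUR had 0.72 ± 0.11 (adjusted p = 0.000156), its difference by the SP3 siRNA being -0.09 alone and 0.63 on top of the SP1 siRNA. TIMP2 had 0.40 ± 0.11 (adjusted p = 0.00753), MMP14 0.55 ± 0.15 (0.0111) and MMP11 -1.21 ± 0.18 (8.9e-05). In MMP11 the SP3 siRNA gave -0.79 alone and -1.99 on top of the SP1 siRNA. The interaction was called for 39.5% of all tested genes. Without the filter on low values none of the 5 passed (adjusted p 0.112 to 0.255).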

How the results depend on the processing

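No called difference of the 9 genes changed sign in the alternatives run. The additive model was run for the comparisons with control, and leaving out a control for those and the interaction. A pseudocount of 0.1 FPKM changed no call among 63 comparisons of the 9 genes, a mean of at least 5 FPKM none of 56 (TIMP3 left out), and median-ratio scaling took away 2 (TIMP2 with both siRNAs against either single one). Leaving out a control leaves no residual degrees of freedom, so it gives values without a test. PLAU then ranged from -1.89 to -1.81 with both siRNAs, and MMP11 from 1.73 to 1.88 with the SP1 siRNA.

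The number of calls depended on the spread estimate. Without a filter on low values (17125 genes, prior degrees of freedom 1.03) limma called 4180 genes with the SP1 siRNA, 2106 with the SP3 siRNA and 3157 with both against control (as reported 7666, 7225 and 7387), 2636 for the SP3 against the SP1 siRNA (7353), and 0 for both against the SP1 siRNA (5566), both against the SP3 siRNA (3871) and the interaction (4630), with 6063, 4443 and 5376 at an unadjusted p under 0.05. Of the 9 genes it then called 4 with the SP1 siRNA, 2 with the SP3 siRNA, 4 with both and 3 for the SP3 against the SP1 siRNA (as reported 6, 6, 7 and 8). It called 0 for both against the SP1 siRNA, both against the SP3 siRNA and the interaction (as reported 6, 7 and 5, and 5, 3 and 5 at an unadjusted p under 0.05). With a mean of at least 5 FPKM, 5109 of 7127 tested genes were called for the SP1 siRNA. The additive model (2 residual degrees of freedom, prior 3.30) called 900, 1805 and 1973 genes in the comparisons with control. Of the 9 genes it called 0 with the SP1 siRNA (unadjusted 5), 4 with the SP3 siRNA and 3 with both. In it, FURIN at 0.19 (adjusted p = 0.6) and S100A10 at 0.062 (0.762) turned from lower to higher with the SP3 siRNA, without passing. In that model a departure from the sum counts as spread. No paired analysis was possible because each siRNA group has 1 library, whose title carries no replicate number, so fewer than 2 numbers are shared between groups. Depth limits TIMP3 and MMP11 most, with 56 to 500 reads.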
